A study of Mus musculus with 6 samples.

Results

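Mitochondria in a cell are not fixed bodies. They join, divide and are removed, and the genes described here encode the core proteins of those 3 activities. They are 10 nuclear genes chosen by name: Mfn1, Mfn2 and Opa1 of fusion, Oma1, which processes OPA1, Dnm1l, Fis1 and Mff of fission, and Pink1, Bnip3l and Fundc1 of mitophagy, the selective removal of mitochondria by autophagy. They were 10 of 54532 genes listed, and all 10 were among the 13423 genes tested, those with a mean of at least 0.5 FPKM. FPKM is fragments per kilobase of gene, scaled to library size. Where it could be checked, the gene length was that of all annotated exons together, which can exceed any single transcript. Levels of different genes can therefore be compared only roughly.

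The cells were mouse aortic smooth muscle cells (MASMCs) in primary culture, released from the abdominal aorta by collagenase. Of 6 bulk RNA-seq libraries, 3 came from cells given a control adenovirus (Ad-Con, genotype WT in the labels) and 3 from cells given an adenovirus carrying PDK4 (Ad-PDK4). PDK4 is pyruvate dehydrogenase kinase 4, which shuts pyruvate dehydrogenase off and so limits the entry of pyruvate into the citric acid cycle. The study's text adds that both groups were exposed to angiotensin II afterwards, so the controls carry that treatment and an adenovirus too. The labels give no age or strain of the donor animals. The comparison asks how the message levels of the fusion, fission and mitophagy machinery differ between the 2 labels.

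Fusion of the outer membranes is carried out by the mitofusins and that of the inner membranes by OPA1, a dynamin-like GTPase that also shapes the cristae. Fission needs the cytosolic GTPase DRP1, encoded by Dnm1l, which adaptors such as MFF recruit to the outer membrane. In mitophagy, PINK1 kinase accumulates on depolarized mitochondria and marks them for removal through ubiquitin, whereas receptors such as BNIP3L and FUNDC1 bind the autophagosome directly. In vascular smooth muscle these activities are studied for their part in the change from a contractile to a synthetic state.

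Each library held 17588942 to 21861872 reads assigned to genes. Replicates of one label correlated at r = 0.971 to 0.975 over log2 levels, and libraries of different labels at r = 0.923 to 0.928. The library labels were checked with the targeted gene. Pdk4 had 679, 642 and 646 reads in Ad-Con and 490, 455 and 572 reads in Ad-PDK4, and its level was 10.0 ± 0.469 FPKM against 7.48 ± 0.162 FPKM (SD, n = 3). Endogenous and vector-borne Pdk4 reads cannot be told apart in these values, and the gene was lower, not higher, in the libraries labelled Ad-PDK4 (log2 fold change −0.42, limma, Benjamini-Hochberg adjusted p = 0.0011). Every direction given here is therefore a direction between labels.

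The smooth muscle identity was checked with 8 markers, of which 3 passed the filter on low values. The 8 together were at 87.8 to 89.4 FPKM in Ad-Con and 43.3 to 48.1 FPKM in Ad-PDK4. Most of it was Acta2 (76.9 to 78.7 against 33.5 to 38.0 FPKM). Smtn and Lmod1 also passed the filter, and both overlapped between the labels. Smtn was at 8.20 to 8.43 against 8.135 to 8.95 FPKM and Lmod1 at 0.615 to 0.797 against 0.501 to 0.637 FPKM. Myh11, the defining smooth muscle myosin, had 2 to 10 reads per library. Tagln (4 to 20 reads), Cnn1 (8 to 30), Des (3 to 16) and Mylk (24 to 188) were under the filter too. By FPKM, Cnn1, Des and Mylk were lower in every Ad-PDK4 library than in any Ad-Con library, while Myh11 and Tagln overlapped. The markers thus did not move as a whole. Most of the 8 markers were thus low, and the name smooth muscle cell rests on Acta2 and on the study. The study reports that it checked the purity of its MASMCs by immunofluorescence for ACTA2. The 5 fibroblast markers summed to 1247 to 1341 FPKM against 661 to 734 FPKM, most of it Col1a1 (1007 to 1086 against 404 to 492 FPKM). They did not move as a whole, as Dcn was at 83.3 to 99.2 FPKM against 143 to 181 FPKM and Pdgfra at 19.9 to 21.3 FPKM against 19.0 to 20.6 FPKM. Of 7 macrophage markers, 5 had at most 3 reads in every library, and the sum was 13.3 to 16.4 FPKM against 3.68 to 5.50 FPKM. Most of it was Cd68 (12.9 to 16.3 against 3.10 to 4.85 FPKM). Csf1r went the other way, at 0.111 to 0.395 FPKM (11 to 35 reads) against 0.565 to 0.725 FPKM (56 to 62 reads). The 6 endothelial markers summed to 0.617 to 0.798 FPKM against 0.885 to 1.18 FPKM. Most of this was Kdr (0.448 to 0.658 against 0.707 to 1.10 FPKM). Vwf (0.0355 to 0.0790 against 0.0249 to 0.0479 FPKM) and Pecam1 (0.0789 to 0.115 against 0.0275 to 0.124 FPKM) overlapped between the labels, and Tie1 had no reads. The sums moved with the labels, and their part in the results below was not tested. In bulk samples fewer cells of a type and less RNA per cell cannot be told apart.

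The promoters of 3 members are printed because these genes gave the largest differences in the fusion and mitophagy groups and because the mitofusins, close relatives in function, differed in opposite directions. They run from 250 bases before the RefSeq transcription start to 50 after it, on GRCm38.p6, and for Mfn2, which has several starts, the one nearest to the annotated gene start is shown. Capitals mark the hypoxia response cores ACGTG and GCGTG on either strand (GCGTG reads as CACGC on the other), which were searched because BNIP3L and its relative BNIP3 are known hypoxia targets.
Mfn1, chr3:32529232-32529531, plus strand: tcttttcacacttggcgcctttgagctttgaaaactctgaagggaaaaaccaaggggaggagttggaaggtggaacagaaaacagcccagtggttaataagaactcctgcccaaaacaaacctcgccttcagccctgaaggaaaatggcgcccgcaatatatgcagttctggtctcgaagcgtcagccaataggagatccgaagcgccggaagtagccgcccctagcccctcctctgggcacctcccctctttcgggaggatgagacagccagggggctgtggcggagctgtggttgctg
Mfn2, chr4:147904649-147904948, minus strand: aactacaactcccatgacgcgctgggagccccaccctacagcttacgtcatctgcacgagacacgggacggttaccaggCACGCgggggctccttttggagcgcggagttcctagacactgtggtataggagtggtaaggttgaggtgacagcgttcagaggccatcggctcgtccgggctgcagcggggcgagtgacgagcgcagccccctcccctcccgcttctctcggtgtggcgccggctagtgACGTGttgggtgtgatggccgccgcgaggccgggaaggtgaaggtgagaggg
Pink1, chr4:138326247-138326546, minus strand: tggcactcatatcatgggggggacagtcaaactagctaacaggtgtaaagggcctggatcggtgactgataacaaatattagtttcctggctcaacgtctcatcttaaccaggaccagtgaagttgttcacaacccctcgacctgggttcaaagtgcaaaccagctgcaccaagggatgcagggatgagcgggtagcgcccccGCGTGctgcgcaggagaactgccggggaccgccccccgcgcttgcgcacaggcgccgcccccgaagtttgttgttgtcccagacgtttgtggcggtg

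The Mfn1 window held neither core, the Mfn2 window held ACGTG at −2 and GCGTG at −171, and the Pink1 window held GCGTG at −47, counted from the start site. Their GC contents were 55.3%, 64.7% and 58%, beside a median of 52.7% over all promoters. Of 32851 promoters of the same length, 19.6% held ACGTG and 32.4% held GCGTG, so these matches are common. RefSeq sequences were matched for 9 of the 10 members, all but Bnip3l. Among members that did not pass the test below, GCGTG also lay in windows of Dnm1l (at 9 and −10, from different start sites) and Fis1 (at 13). The core of the nuclear respiratory factor 1 site, CGCATGCG, which 1.87% of all promoters hold, lay at −58 in the Opa1 window. A match describes letters in the window and not a bound site.

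Of the 10 members, 1 was higher in Ad-PDK4 (Mfn2), 3 were lower (Mfn1, Pink1 and Bnip3l) and 6 did not pass the test (adjusted p below 0.05). Over all genes tested, 21.8% passed as higher and 20.8% as lower, so 1 and 3 of 10 are not far from the background. None of the 10 also reached a 2-fold difference, which 6.63% of all genes did. The median log2 fold change of the members was −0.08, and the median of its size was 0.11, beside −0.003 and 0.25 over all genes. The 3 libraries of one label lay wholly above or below those of the other for 5 of the 10 members (Mfn1, Mfn2, Fis1, Pink1 and Bnip3l), and for 54.3% of all genes.

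**Figure D1:**
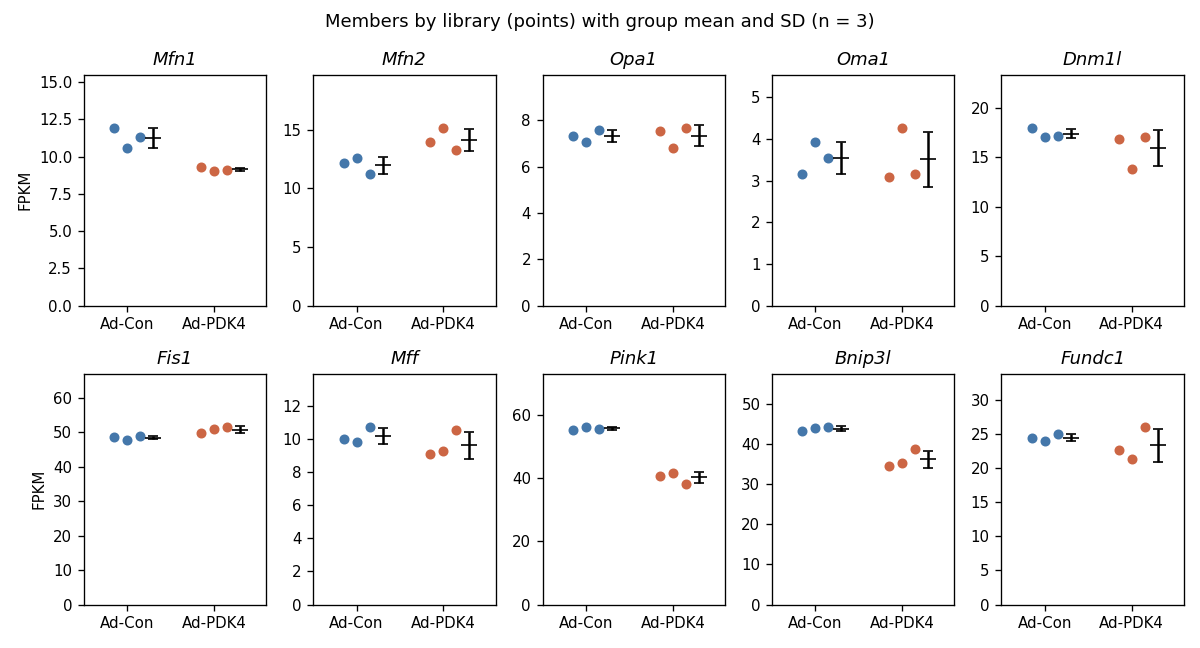
Level in FPKM (y axis, starting at 0) of each of the 10 members in each of the 3 Ad-Con and 3 Ad-PDK4 libraries (points), with the group mean and SD beside them. Pink1 shows the widest gap, from 55.4 to 56.2 FPKM in Ad-Con down to 38.3 to 41.7 FPKM in Ad-PDK4, while Opa1, Oma1, Dnm1l, Mff and Fundc1 overlap between the labels.

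The mitofusins moved apart. Mfn1 (ENSMUSG00000027668, GRCm38 chr3:32529465-32579239, plus strand) encodes the outer-membrane GTPase that tethers neighbouring mitochondria. Its level was 11.9, 10.6 and 11.3 FPKM in the Ad-Con libraries and 9.28, 9.05 and 9.12 FPKM in the Ad-PDK4 libraries, from 968 to 1482 reads each. The lowest control library lay above the highest Ad-PDK4 library, and the Ad-PDK4 values lay within a narrower range than the control values. The log2 fold change was −0.30 (95% interval −0.44 to −0.15, limma, Benjamini-Hochberg adjusted p = 0.0064), and the mean changed by −18.8%.

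Mfn2 (ENSMUSG00000029020, chr4:147873599-147904704, minus strand), the other mitofusin, also ties mitochondria to the endoplasmic reticulum. It was at 12.2, 12.6 and 11.2 FPKM in Ad-Con and at 14.0, 15.1 and 13.3 FPKM in Ad-PDK4. All 3 Ad-PDK4 libraries were above all 3 control libraries, though the nearest were close. The log2 fold change was 0.24 (95% interval 0.07 to 0.40, adjusted p = 0.030), a rise of 17.9% in the mean. This call was the least stable of the 4: it was lost on leaving out any one of Ad-Con replicate 1 (adjusted p = 0.066), Ad-Con replicate 3 (adjusted p = 0.10), Ad-PDK4 replicate 1 (adjusted p = 0.074) or Ad-PDK4 replicate 2 (adjusted p = 0.074), with log2 fold changes of 0.18 to 0.25.

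Because both mitofusins serve the same membrane, their levels were also read against each other within a library, which removes the library's own scale. The Mfn1 to Mfn2 ratio was 0.980, 0.841 and 1.01 in Ad-Con and 0.665, 0.598 and 0.688 in Ad-PDK4. The FPKM of the mitofusins was thus nearly equal in the control cells, and every Ad-PDK4 library had a lower FPKM for Mfn1 than for Mfn2. How near the ratio is to 1 depends on the gene lengths used, but its change between labels does not. The mean ratio went from 0.944 ± 0.0907 to 0.65 ± 0.0468 (SD, n = 3), a log2 difference of −0.54. The exact two-sided permutation p was 0.1, the smallest that the 20 arrangements of 3 against 3 allow, so this test cannot reach 0.05 here.

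**Figure D2:**
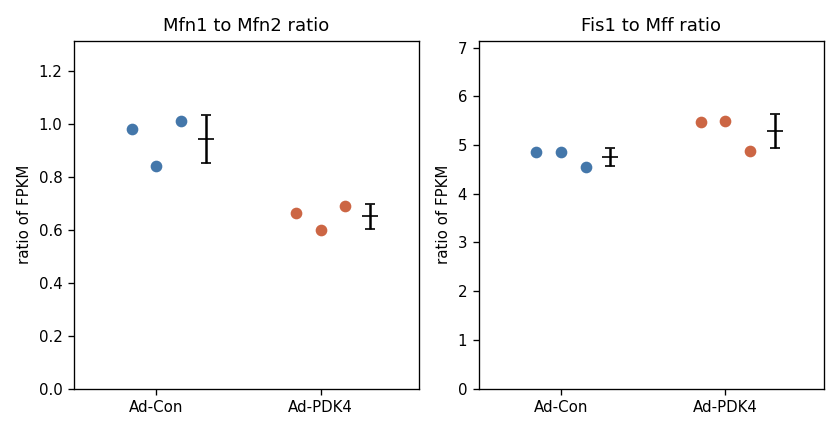
Ratio of FPKM within each library (y axis, starting at 0) for Mfn1 to Mfn2 (left) and Fis1 to Mff (right), with points for libraries and the mean and SD beside them. The Mfn1 to Mfn2 ratio is 0.841 to 1.01 in Ad-Con and 0.598 to 0.688 in Ad-PDK4, and the Fis1 to Mff ratio is 4.55 to 4.86 against 4.88 to 5.49.

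The inner membrane pair gave no detectable difference. Opa1 (ENSMUSG00000038084, chr16:29579334-29654884, plus strand) was at 7.32, 7.07 and 7.56 FPKM in Ad-Con and 7.55, 6.80 and 7.66 FPKM in Ad-PDK4. The lowest and the highest of the 6 values were both Ad-PDK4 libraries. The 95% interval of its log2 fold change, −0.16 to 0.16, was centred near zero (adjusted p = 0.98).

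Oma1 (ENSMUSG00000035069, chr4:103313812-103371868, plus strand), the stress-activated protease that cleaves OPA1, was the lowest of the members. It was at 3.16, 3.93 and 3.55 FPKM in Ad-Con and 3.10, 4.26 and 3.17 FPKM in Ad-PDK4. Ad-PDK4 replicate 2 had the highest value and Ad-PDK4 replicate 1 the lowest, so the groups overlapped entirely. Its log2 fold change was −0.02 (95% interval −0.35 to 0.30, adjusted p = 0.91). Oma1 rested on 121 to 160 reads per library, and its coefficient of variation was 10.8% in Ad-Con and 18.6% in Ad-PDK4, where read counting alone would give 8.42% and 8.39%. Its interval was the widest of the 10 and reached past the fitted difference of Mfn1.

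The fission genes did not pass the test. Dnm1l (ENSMUSG00000022789, chr16:16312230-16358959, minus strand) was at 18.0, 17.1 and 17.2 FPKM in Ad-Con and 16.8, 13.8 and 17.1 FPKM in Ad-PDK4. Ad-PDK4 replicate 2 stood below the other 5 libraries, which lay close together. It differed by −0.13 on the log2 scale (95% interval −0.33 to 0.07, adjusted p = 0.25) and −0.03 (adjusted p = 0.62) without that library.

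Fis1 (ENSMUSG00000019054, chr5:136953275-136966234, plus strand) encodes a small outer-membrane protein of mitochondria and peroxisomes. It was at 48.7, 47.8 and 48.9 FPKM in Ad-Con and 49.7, 50.9 and 51.6 FPKM in Ad-PDK4. The groups did not overlap, but the gap was under 1 FPKM and the log2 fold change of 0.07 did not pass (95% interval −0.03 to 0.17, adjusted p = 0.26). The interval was the narrowest of the 10.

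Mff (ENSMUSG00000026150, chr1:82724890-82752394, plus strand), the main adaptor for DRP1, was at 10.0, 9.84 and 10.7 FPKM in Ad-Con and 9.08, 9.27 and 10.6 FPKM in Ad-PDK4. Ad-PDK4 replicate 3 lay among the controls and the other 2 Ad-PDK4 libraries below them. On the log2 scale the difference was −0.08 (95% interval −0.26 to 0.09, adjusted p = 0.41). Within a library, the FPKM of Fis1 was 4.85, 4.86 and 4.55 times that of Mff in Ad-Con and 5.47, 5.49 and 4.88 times in Ad-PDK4. The size of this ratio depends on the gene lengths used, 1714 bases for Fis1 and 9757 for Mff. This ratio was higher in every Ad-PDK4 library, but the nearest libraries almost met, at 4.878 (Ad-PDK4 replicate 3) and 4.865 (Ad-Con replicate 2). The log2 difference was 0.15 and the exact two-sided permutation p was 0.1, again the smallest possible. With any one Ad-Con library left out, the permutation p was 0.2.

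In the mitophagy group, the kinase and 1 of the 2 receptors fell. Pink1 (ENSMUSG00000028756, chr4:138313409-138326307, minus strand) had the highest FPKM of the members in the control cells, at 55.4, 56.2 and 55.7 FPKM. It was at 40.7, 41.7 and 38.3 FPKM in Ad-PDK4. No library came near the other group, and the controls agreed to a coefficient of variation of 0.758%, below the 1.90% that read counting would give. The log2 fold change was −0.47 (95% interval −0.59 to −0.36, adjusted p = 2.0e-04), the largest in size of the 10, and the mean changed by −27.9%.

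Bnip3l (ENSMUSG00000022051, chr14:66985239-67008877, minus strand), also called Nix, clears mitochondria from maturing red cells. It was at 43.2, 44.0 and 44.2 FPKM in Ad-Con and 34.6, 35.2 and 38.6 FPKM in Ad-PDK4. The controls were tight, and Ad-PDK4 replicate 3 was nearest to them without reaching them. The log2 fold change was −0.28 (95% interval −0.41 to −0.15, adjusted p = 0.0049), a change of −17.5% in the mean. The gene shares 20.8% of its 50-base words with the pseudogene Bnip3l-ps, listed at 8.94 to 11.6 FPKM, so reads could be split between them. With the reads of both summed, an alternative added after the data were seen, the log2 fold change was −0.27 (adjusted p = 0.0061).

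Fundc1 (ENSMUSG00000025040, chrX:17556564-17572325, minus strand), the receptor known from hypoxic mitophagy, was at 24.4, 23.9 and 24.9 FPKM in Ad-Con and 22.6, 21.3 and 26.0 FPKM in Ad-PDK4. The Ad-PDK4 libraries lay on both sides of the controls, with a coefficient of variation of 10.5% against 2.11%. Its log2 fold change was −0.07 (95% interval −0.25 to 0.10, adjusted p = 0.49).

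**Figure D3:**
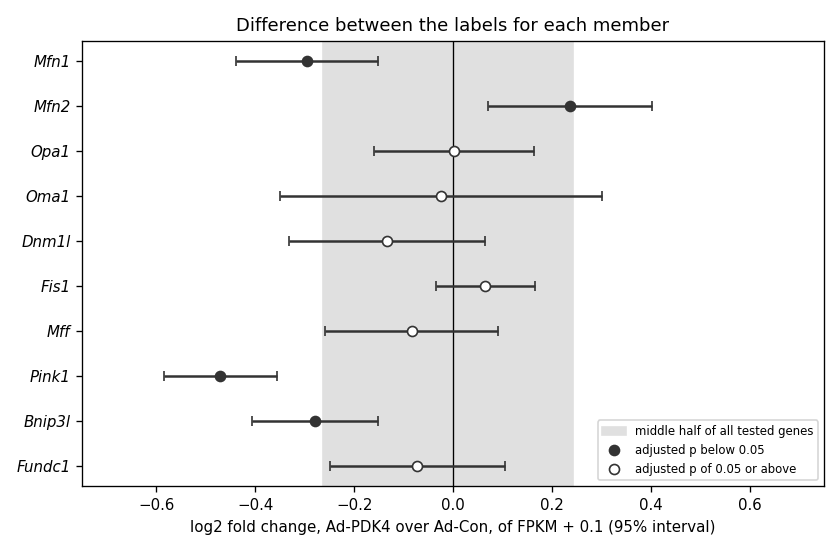
Log2 fold change of FPKM + 0.1, Ad-PDK4 over Ad-Con (x axis), for each member with its 95% interval. Filled points passed an adjusted p of 0.05, and the grey band spans the middle of all tested genes, from the 25th to the 75th percentile (−0.26 to 0.24): only Mfn1, Pink1 and Bnip3l have point estimates outside it.

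Ordered by FPKM in Ad-Con, which depends on the gene lengths used, Pink1 was followed by Fis1, Bnip3l, Fundc1 and Dnm1l. Then came Mfn2, Mfn1 and Mff, whose ranges overlapped from neighbour to neighbour, then Opa1 and Oma1. In Ad-PDK4, Fis1 stood at the top. Pink1 and Bnip3l overlapped below it, as did Dnm1l with Mfn2 and Mff with Mfn1. Opa1 and Oma1 were the lowest under both labels. Among all tested genes the members lay from the 34.0th percentile of mean FPKM (Oma1) to the 92.0th (Fis1).

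The members differ in gene structure and in how cleanly reads can be assigned to them. GENCODE M21, whose coordinates for all 10 are those of the deposited table, gives Mff 16 transcripts, 10 of them protein coding, and Oma1 3 with 1 protein coding. The values are sums over a gene, so a shift between isoforms of Mff, Opa1 or Dnm1l, all known for alternative splicing, would not show. The lengths that divide the reads of Mff (9757 bases), Dnm1l (5203) and Pink1 (2673) are those of all their annotated exons together. That can lower the FPKM of a gene with many transcripts. Fis1, Fundc1, Mfn2, Oma1 and Opa1 share no 50-base word with another gene, and Mfn1, Mff, Pink1 and Dnm1l share 0.885% to 4.90%. Dnm1l and Mff overlap transcripts of the other strand over 4.67% and 2% of their exons, and the counting's strand setting is not given in the sources used here, though both partners were listed at or near 0.

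Around these 10, 57 further genes of the same pathways were taken as 9 lists, and 53 of them were tested. Of these, 9 were higher in Ad-PDK4, 6 were lower and 38 did not pass, with a median log2 fold change of 0.05 and none at a 2-fold difference. Over all genes tested, 21.8% passed as higher, 20.8% as lower and 6.63% with a 2-fold difference, so the counts of the 53 are not above the background. The same shares are the background for each list below. The list of OPA1 processing had 1 of 7 higher. That was Phb, a prohibitin scaffold of the inner membrane (45.2 ± 1.69 to 53.5 ± 3.94 FPKM, log2 fold change 0.24, adjusted p = 0.017), which shares 30.3% of its words with other genes and lost its call without Ad-Con replicate 1 (0.21, adjusted p = 0.064). Yme1l1, the other protease of OPA1, was at 14.3, 13.7 and 14.1 FPKM against 16.2, 13.6 and 17.9 FPKM (log2 fold change 0.17, adjusted p = 0.20). Without Ad-PDK4 replicate 2 its difference was 0.28 (adjusted p = 0.013). Among the fusion regulators, 1 of 5 was higher, Marchf5, a ubiquitin ligase of the outer membrane that acts on mitofusins (61.7 ± 2.33 to 75.8 ± 3.31 FPKM, 0.30, adjusted p = 0.0030).

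The other DRP1 adaptors, Mief1 and Mief2, did not pass, with log2 fold changes of 0.17 (adjusted p = 0.22) and 0.11 (adjusted p = 0.52). Of 8 fission regulators, 1 was higher. It was Dnm2, a dynamin best known from endocytosis, at 35.0, 36.0 and 34.0 FPKM in Ad-Con and 43.2, 47.8 and 39.4 FPKM in Ad-PDK4 (log2 fold change 0.31, adjusted p = 0.011). The 4 genes of mitochondrial motility did not pass.

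Around PINK1, 5 of 13 genes were higher and 2 were lower, beside 21.8% and 20.8% over all genes tested. The ubiquitin ligase gene Mul1 rose from 7.02 ± 0.191 to 9.76 ± 0.796 FPKM (log2 fold change 0.47, adjusted p = 0.0017), and Tbk1, whose kinase acts on mitophagy adaptors, from 15.6 ± 0.721 to 20.4 ± 0.619 FPKM (0.38, adjusted p = 0.0012). The other 3 that rose, Tax1bp1 (0.26), Fbxo7 (0.27) and Usp8 (0.15), are named outside the naming rule. Optn, the adaptor optineurin, fell like Pink1, from 19.4, 20.8 and 18.4 FPKM to 13.2, 13.5 and 13.9 FPKM (log2 fold change −0.52, adjusted p = 3.4e-04), as did Vcp (−0.26, adjusted p = 0.012), a segregase whose gene shares 43.6% of its words. The Vcp call was lost without Ad-Con replicate 3 (−0.24, adjusted p = 0.051) or Ad-PDK4 replicate 1 (−0.22, adjusted p = 0.053).

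Among the mitophagy receptors, Bnip3, the relative of Bnip3l, was also lower, at 14.3, 13.9 and 15.7 FPKM against 11.2, 11.4 and 12.6 FPKM (log2 fold change −0.32, adjusted p = 0.0093). It shares 47.2% of its words with other genes. Nipsnap1, a matrix protein that marks damaged mitochondria, was lower too (−0.24, adjusted p = 0.035), though the call was lost without Ad-Con replicate 1, Ad-Con replicate 3, Ad-PDK4 replicate 1 or Ad-PDK4 replicate 2 (−0.23 to −0.18, adjusted p of 0.074 to 0.12) and under 3 other alternatives. Pptc7, a mitochondrial phosphatase that restrains BNIP3 and BNIP3L, was higher, at 10.9 against 14.2 FPKM (0.38, adjusted p = 0.0015). The Pptc7 gene shares 20.45% of its words with Rad9b. The remaining 4 of 7 did not pass.

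Of the 7 MICOS genes, which hold the cristae junctions, 2 were lower: Apool (6.16 ± 0.336 to 3.98 ± 0.283 FPKM, log2 fold change −0.62, adjusted p = 6.9e-04) and Chchd3 (−0.29, adjusted p = 0.010). Of the 13 import and porin genes, 3 were higher and 2 lower. Vdac1, the main outer-membrane channel, was at 113, 114 and 115 FPKM against 80.9, 77.8 and 80.3 FPKM (−0.52, adjusted p = 5.4e-05), and Tomm20 was lower by a smaller step (−0.20, adjusted p = 0.018), a call lost without Ad-Con replicate 2, Ad-Con replicate 3 or Ad-PDK4 replicate 1 (−0.20 to −0.17, adjusted p of 0.063 to 0.065). Vdac3 was higher (0.26, adjusted p = 0.0045), as were Timm23 (0.47, adjusted p = 0.0017), with 57.5% of its words shared, and Hspa9 (0.19), which is named outside the naming rule.

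**Figure D4:**
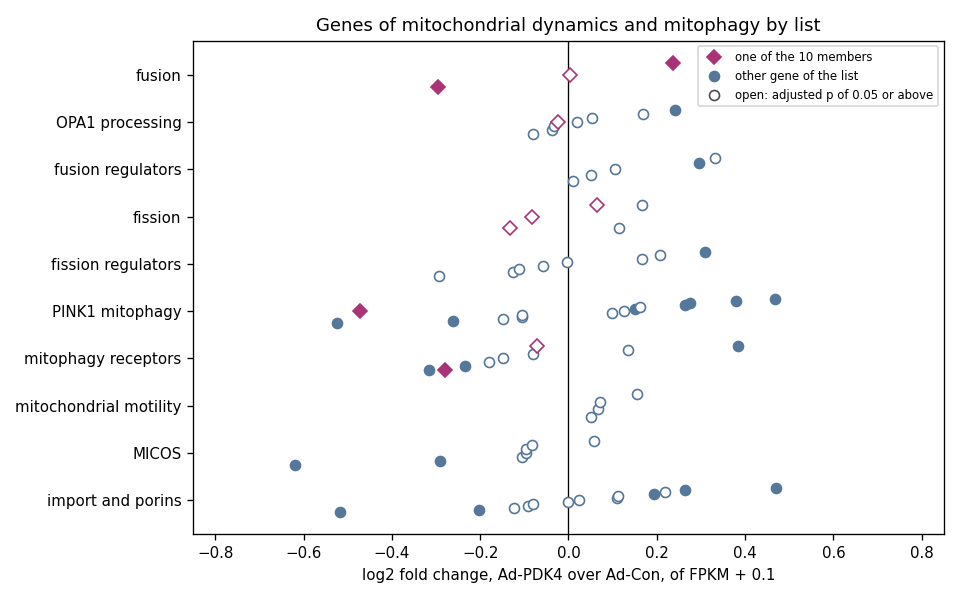
Log2 fold change of FPKM + 0.1, Ad-PDK4 over Ad-Con (x axis), for each tested gene of 10 lists (y axis), with diamonds for the 10 members, circles for other genes and open symbols for genes that did not pass an adjusted p of 0.05. Pink1 (−0.47) sits beside Optn on the left of a list in which 5 other genes passed as higher, and Bnip3l (−0.28) sits beside Bnip3.

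The genes whose log2 levels followed Mfn2 most closely over the 6 libraries were Rprd1b (r = 0.997), Cachd1 (r = 0.996) and Fpgs (r = 0.995), and 263 of 13422 genes were above 0.95. For Pink1 they were Igf2r (r = 0.9999), Ralgds (r = 0.9998) and Ltbp4 (r = 0.9996), among 1173 genes above 0.95. The 6 points share the 2 labels, so a gene that differs between labels with tight replicates scores high against Pink1. These correlations describe the libraries only.

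**Figure D5:**
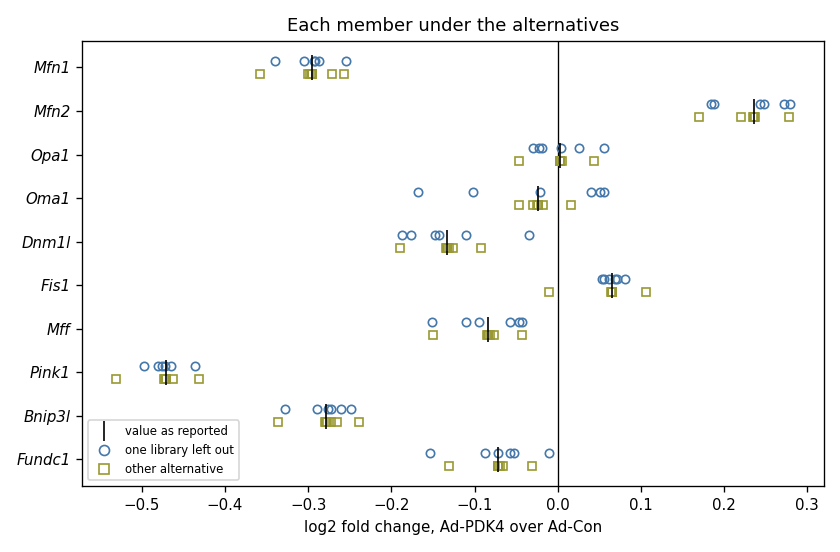
Log2 fold change of each member (x axis) as reported (vertical line), with one library left out (circles) and under each other alternative (squares). Pink1 runs from −0.53 to −0.43, Mfn1 from −0.36 to −0.25 and Bnip3l from −0.34 to −0.24, while Opa1, Oma1 and Fis1 have values on both sides of zero.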

How the data were processed

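RNA of MASMCs was sequenced as 6 bulk libraries. FPKM per gene was deposited by the authors in a single table. The submitters' processing notes name CASAVA 1.8, fastp, HISAT2 2.0.5, featureCounts 1.5.0-p3, DESeq2 1.20.0 and the build GRCm39, while the coordinates in the table match GRCm38 (98.3% of 54409 matched genes carried the GENCODE M21 position). The annotation release and strand setting are not given in the sources used here. FPKM times gene length returned whole reads within 0.01, and the FPKM had been scaled between libraries by the authors with size factors.

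The values were tested as log2(FPKM + 0.1) for 13423 genes with a mean of at least 0.5 FPKM, with limma 3.58.1 in R 4.3.3 (trended, robust moderation, Benjamini-Hochberg adjustment over all of them). Fold changes on this scale understate those of low genes. The threshold was an adjusted p of 0.05. The study's own tool, a count model, was not used because the deposited unit is FPKM, and voom on the recovered reads served as the count alternative. The groups come from the labels, and 3 libraries per group set the precision. The study calls them biological replicates, but the labels do not tie them to separate cultures or animals, so the p-values measure the spread between these samples, which may be technical. Replicates differed by more than sampling noise in every pair (chi-square per degree of freedom of 4.35 to 12.7). Coefficients of variation from counting cover counting error only.

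The members and gene lists were chosen with earlier results of these data known. Named beside the members were Pdk4, the partners Bnip3, Mief1, Mief2 and Yme1l1 (another partner is not reported here), in each list up to 2 genes with the largest rise and 2 with the largest fall among those past the threshold, and the 3 genes most correlated with the member of smallest adjusted p in each direction. Shared words were counted as 50-base stretches of GENCODE transcripts. Promoters are from RefSeq. The fit was tested on simulated data. The alternatives were pseudocounts of 0.01 and 1, other filters, TPM and quantile scaling, moderation without trend, the replicate block, voom and leaving out each library.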

Additional observations from a re-analysis of the deposited data

How the results depend on the processing

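Mfn1, Pink1 and Bnip3l kept their direction and their call under all alternatives, so the count of lower members was 3 in each of them. Mfn2 did not: the count of higher members was 0 with no filter on low values (Mfn2 log2 fold change 0.24, adjusted p = 0.064), under quantile normalization (0.17, adjusted p = 0.090) and with plain moderation (0.24, adjusted p = 0.056), and it ranged from 0 to 1 as libraries were left out. A larger number of genes enters the adjustment without the filter, and the cause of the others was not tested. Opa1, near zero, went to −0.046 under quantile normalization and ranged from −0.029 to 0.055 with 1 library left out, below zero without Ad-Con replicate 2, Ad-PDK4 replicate 1 or Ad-PDK4 replicate 3. Oma1 went to 0.016 under TPM and ranged from −0.17 to 0.055, above zero without the same libraries. Fis1 went to −0.011 under quantile normalization. None of these 3 had passed the test. Among the pathway genes, 10 were lower under quantile normalization in place of 6, and the counts with 1 library left out were 4 to 7 lower and 7 to 10 higher. Phb lost its call without Ad-Con replicate 1 (0.21), Vcp without Ad-Con replicate 3 (−0.24) or Ad-PDK4 replicate 1 (−0.22), and Tomm20 without any one of 3 libraries (−0.17, −0.19 and −0.20). Nipsnap1 lost its call with no filter (−0.24, adjusted p = 0.072), under TPM (−0.20, adjusted p = 0.072), with plain moderation (−0.24, adjusted p = 0.060) and without any one of 4 libraries. TPM moved the median of all genes to 0.04 and quantile normalization to −0.04. Oma1 falls below a minimum of 5 FPKM, where 9 members remain.

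Over all genes tested, the replicate numbers gave no sign of pairing, as the deviations of same-numbered libraries correlated at −0.046, −0.031 and −0.0013. Pairing was not tested for the members alone. The replicate block lowered the standard error of Mfn2 (0.072 to 0.054) and Oma1 (0.141 to 0.094) and of all other members but Fis1 (0.043 to 0.047) and Pink1 (0.0494 to 0.0499). With the replicate block, 1 member was higher and 3 were lower, and 2759 genes were higher and 2626 lower over all genes. Oma1 had the fewest reads of the members, and how far depth limits its result was not tested.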
